A study of Mus musculus with 24 samples.

Results

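Ccr1, Ccr2, Ccr3, Ccr4 and Cxcr6 are the chemokine receptors among the 96 genes of a custom NanoString panel that are tied to entry of leukocytes into peripheral tissue. The 5 genes were taken by name from the panel and were described in all 24 samples, each holding regulatory T cells (Tregs) that were sorted out of visceral fat (visceral adipose tissue, VAT) of 1 male C57/Bl6 mouse. Knockout mice (KO) were Foxp3-YFP-Cre;Insr-fl/fl, in which Cre removes the insulin receptor gene in cells that express Foxp3. Control mice (Ctrl) were Foxp3-YFP-Cre;Insr-wt/wt, so they carried the same Cre allele. The groups were 5 KO and 4 Ctrl mice fed a diet high in fat and sucrose (HFD), 3 KO and 3 Ctrl mice on normal chow (NCD), and 6 KO and 3 Ctrl mice that stayed on NCD until 52 weeks of age. The first 4 groups were on their diet for 13 weeks starting at 3 weeks of age and were 16 weeks old. Per the labels, this Cre line can recombine outside Tregs, and the mice were an F4 generation bred from F3 littermates. Sorting took CD45+ CD4+ Foxp3(YFP)+ cells, and RNA was counted from lysed cells. In such bulk samples, fewer cells of a type and less RNA per cell cannot be told apart.

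Chemokine receptors are G protein-coupled receptors that steer leukocytes along gradients of secreted chemokines. Ccr1 binds Ccl3 and Ccl5, Ccr2 binds Ccl2, which recruits monocytes and T cells to inflamed tissue, and Ccr3 is the receptor of the eotaxins and is best known from eosinophils. Ccr4 binds Ccl17 and Ccl22 and is carried by Tregs and Th2 cells, and Cxcr6 binds Cxcl16 and is carried by tissue-resident T cells. Tregs of visceral fat are known for expressing several of these receptors, among them Ccr2, whose loss in mice lowers Treg numbers in that tissue.

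All 5 receptor genes lie on mouse chromosome 9 in the RefSeq annotation of GRCm38.p6. Cxcr6 (chr9:123806477-123811754, plus strand), Ccr1 (chr9:123962126-123968692, minus strand), Ccr3 (chr9:124017825-124031692, plus strand) and Ccr2 (chr9:124101918-124109140, plus strand) sit within 303 kb, a stretch that holds 6 protein-coding genes in all, the others being Xcr1 and Ccr1l1. Ccr4 (chr9:114490316-114505476, minus strand) lies 9.3 Mb away. The panel holds 10 genes of this chromosome.

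RefSeq promoter windows of 300 bases, 250 before and 50 after the start site, are printed 5′ to 3′ for the 4 receptors with a difference that passed the test below; capitals mark matches to the motifs searched. The windows were chr9:123968643-123968942 (minus strand) for Ccr1, chr9:124101933-124102232 (plus strand) for Ccr2, chr9:124021721-124022020 (plus strand) for Ccr3 and chr9:114496495-114496794 (minus strand) for Ccr4, all GRCm38.p6. The start sites of Ccr2, Ccr3 and Ccr4 used there lie inside the annotated genes.
Ccr1: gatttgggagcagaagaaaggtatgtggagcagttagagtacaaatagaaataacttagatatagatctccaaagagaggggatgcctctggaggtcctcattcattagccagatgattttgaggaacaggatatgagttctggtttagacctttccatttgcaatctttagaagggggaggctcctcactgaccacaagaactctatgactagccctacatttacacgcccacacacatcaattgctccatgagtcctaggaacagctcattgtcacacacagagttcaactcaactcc
Ccr2: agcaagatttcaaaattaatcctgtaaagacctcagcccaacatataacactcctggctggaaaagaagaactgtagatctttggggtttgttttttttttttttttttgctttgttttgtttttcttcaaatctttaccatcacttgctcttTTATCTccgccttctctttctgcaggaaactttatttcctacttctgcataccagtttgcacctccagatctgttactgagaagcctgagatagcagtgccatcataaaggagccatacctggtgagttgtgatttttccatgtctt
Ccr3: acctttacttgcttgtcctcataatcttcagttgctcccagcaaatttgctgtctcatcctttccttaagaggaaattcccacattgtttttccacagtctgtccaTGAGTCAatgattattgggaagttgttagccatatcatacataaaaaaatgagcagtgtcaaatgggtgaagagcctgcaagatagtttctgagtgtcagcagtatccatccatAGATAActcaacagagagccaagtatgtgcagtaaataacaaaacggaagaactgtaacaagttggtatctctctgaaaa
Ccr4: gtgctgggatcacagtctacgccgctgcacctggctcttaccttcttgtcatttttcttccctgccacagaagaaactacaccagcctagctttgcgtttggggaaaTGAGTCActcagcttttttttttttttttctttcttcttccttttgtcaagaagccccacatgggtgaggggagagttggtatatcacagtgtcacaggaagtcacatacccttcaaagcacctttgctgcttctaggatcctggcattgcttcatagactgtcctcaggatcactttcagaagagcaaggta

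Both strands were searched for the letters of AP-1 (TGANTCA), STAT (TTCNNNGAA), forkhead (TGTTTAC) and T-box (TCACACCT) motifs and for AGATAA, the letters of a GATA motif. Ccr3 held an AP-1 match at position -144 and a GATA match at -30, Ccr4 held an AP-1 match at -143, and Ccr2 held a GATA match on the opposite strand at -97, each position counted from the start site. Ccr1 and Cxcr6 held none of the 5 motifs in this window. Among all 32851 RefSeq promoter windows of the same length, 7.81% held the AP-1 letters and 11.2% the GATA letters. The STAT, forkhead and T-box letters, found in 8.3%, 3.65% and 1.28% of windows, were in none of the 5.

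Levels below are deposited nCounter signal, which the authors had brought to a panel total near 100000 in each sample, and differences below are in log2(signal + 1). Counts were estimated from the step of the signal in each sample, and 2302 of 2304 values were whole multiples of it. A second check of the lowest values did not accept them as counts. Recovered counts and their intervals below are therefore estimates that rest on these steps. Recovered totals ran from 34986 to 224793 counts in HFD KO, 24005 to 152648 in HFD Ctrl, 11446 to 23790 in NCD KO, 17371 to 141932 in NCD Ctrl, 21487 to 135141 in 52-week KO and 27591 to 94023 in 52-week Ctrl mice. Scaled panel totals were 100000 to 100422 in KO and 100071 to 126723 in Ctrl samples, so the scaling moved with genotype. InsR, the gene removed in KO mice, did not overlap between KO and Ctrl mice in any setting, at 5.43 ± 3.04 in HFD KO against 92.0 ± 31.7 in HFD Ctrl, 10.5 ± 6.66 in NCD KO against 106.9 ± 49.7 in NCD Ctrl and 7.64 ± 5.85 in 52-week KO against 388 ± 112 in 52-week Ctrl mice (signal, SD). Whether the InsR probe lies inside the floxed part is not stated in the labels. Foxp3, CD25 and Helios, the 3 of 5 listed Treg markers on the panel, were detected in all groups. Foxp3 ran from 172 to 1418 in 52-week KO mice, below all 15 mice aged 16 weeks, where its lowest value was 2107. In 52-week Ctrl mice it ran from 1462 to 2257, partly below that value as well.

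In NCD mice, Ccr2 was lower in KO than in Ctrl Tregs, and it was the 1 receptor of 5 that passed in a genotype comparison within a setting. Ccr2 signal was 98.2, 122 and 218 in the 3 NCD KO mice, against 393, 506 and 1333 in the 3 NCD Ctrl mice. All 3 KO mice lay below all 3 Ctrl mice, and the KO mean was 146 ± 63.6 against a Ctrl mean of 744 ± 513 (SD, n = 3 each). The log2 difference was -2.21 (SE 0.61, 95% interval -3.47 to -0.96, adjusted p = 0.033 by limma with Benjamini-Hochberg adjustment over the 96 genes), and its sign held under each scaling tried. Of all 96 genes, 5.21% passed in this comparison, 3 higher and 2 (2.08%) lower. The split was the same with sample median centring, and it was 1 higher and 2 lower with reference gene centring. The 3 KO values rested on 20, 29 and 25 recovered counts. The Ccr2 call was lost without NCD Ctrl replicate 2 (adjusted p = 0.074), NCD Ctrl replicate 3 (0.22, log2 difference -1.69), NCD KO replicate 1 (0.14) or NCD KO replicate 2 (0.10), and when the 2 groups were fitted alone (0.10).

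Ccr3, the eotaxin receptor, was the other receptor whose NCD groups did not overlap. Its signal was 58.9, 46.3 and 87.4 in NCD KO mice, against 9.52, 17.9 and 13.4 in NCD Ctrl mice. Every KO mouse was above every Ctrl mouse, yet the log2 difference of 2.15 (SE 0.80, adjusted p = 0.16 by limma) did not pass. Ranges of NCD KO and NCD Ctrl mice did not overlap for 24% of all genes, 10.4% being higher and 13.5% lower in KO. The values rested on 12, 11 and 10 recovered counts in KO mice and on 3, 3 and 15 in Ctrl mice. Pooled over mice, that is 33 of 55596 recovered counts in KO and 21 of 193975 in Ctrl, a ratio of 5.48 (95% exact binomial interval 3.08 to 9.97, covering counting error only). NCD Ctrl replicate 3 alone gave 141932 of the pooled Ctrl counts and 15 of the 21 for Ccr3, so the ratio leans on 1 mouse. Ccr3 passed when the NCD groups were fitted alone (adjusted p = 0.032) or with array weights (0.021).

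Ccr1, Ccr4 and Cxcr6 had overlapping NCD groups and did not pass. Cxcr6, the Cxcl16 receptor, had signal of 255, 206 and 17.5 in NCD KO mice, against 1161, 149 and 530 in NCD Ctrl mice. The lowest of these, NCD KO replicate 3, rested on 2 counts. Its log2 difference was -2.19 (SE 1.05, adjusted p = 0.35 by limma), with a 95% interval of -4.37 to -0.0042. Ccr1 had 186.6, 92.6 and 183 in NCD KO mice, against 438, 125.0 and 84.8 in NCD Ctrl mice (log2 difference -0.18, SE 0.86, adjusted p = 0.98 by limma). Ccr4 had 182, 274 and 524 in NCD KO mice, against 333, 232 and 621 in NCD Ctrl mice (log2 difference -0.29, SE 0.66, adjusted p = 0.95 by limma). The Ccr1 values of NCD KO mice lay inside the Ctrl range, while 1 NCD KO mouse lay below all Ctrl mice for Ccr4.

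On HFD, none of the 5 receptors passed between KO and Ctrl Tregs by limma, none had an unadjusted p under 0.05, and voom called none. Of all genes, 2.08% passed by limma, none higher and 2 lower. The split was the same with sample median centring, and it was 1 higher and 2 lower with reference gene centring. Ccr1 was 8.57, 30.1, 34.7, 18.5 and 4.45 in HFD KO mice, against 65.2, 13.1, 34.1 and 62.5 in HFD Ctrl mice, which overlapped (log2 difference -1.23, SE 0.71, adjusted p = 0.43 by limma). Ccr2 was 117, 176, 145, 195 and 176 in HFD KO mice, against 354, 174, 126 and 329 in HFD Ctrl mice (-0.50, SE 0.50, adjusted p = 0.69). The 5 KO values of Ccr2 lay close together, and 2 of the 4 Ctrl values lay among them. Ccr4 was 477, 458, 371, 369 and 447 in HFD KO mice, against 251, 219.7, 152 and 467 in HFD Ctrl mice, so 3 of the 4 Ctrl mice were below every KO mouse (0.75, SE 0.54, adjusted p = 0.57 by limma). Cxcr6 was 54.3, 336, 371, 313 and 173 in HFD KO mice, against 189, 91.2, 109 and 238 in HFD Ctrl mice (0.50, SE 0.87, adjusted p = 0.83 by limma). Cxcr6 KO values lay both above and below all 4 Ctrl values. Ccr3 was 1.78 to 14.3 in HFD KO mice and 5.25 to 13.2 in HFD Ctrl mice, on 2 to 5 and 3 to 17 counts (-0.90, SE 0.66, adjusted p = 0.57 by limma).

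At 52 weeks, again none of the 5 receptors passed by limma, while 24% of the panel did, 3 higher and 20 lower. The split was the same with reference gene centring, and it was 14 higher and 2 lower with sample median centring. Cxcr6 had the largest difference of the 5. Its lowest, median and highest signal was 18.6, 139 and 707 in the 6 KO mice, against 453, 669.7 and 360.3 in the 3 Ctrl mice. KO replicate 5 lay above all Ctrl mice and the other 5 KO mice lay below all of them. The log2 difference was -2.02 (SE 0.91, adjusted p = 0.11 by limma), and it was -2.53 (adjusted p = 0.030) without KO replicate 5, -2.16 (0.039) by voom and -1.89 (0.037) with array weights. Tcra, the T cell receptor alpha chain and the 1 of 5 listed T cell markers on the panel, ran from 7.43 to 698 in the KO and from 474 to 2090 in the Ctrl mice, with the highest KO value also in replicate 5 (-2.68, adjusted p = 0.064). The Treg markers were lower in 52-week KO than in 52-week Ctrl mice, Foxp3 by a log2 difference of -1.69 (adjusted p = 0.021 by limma), CD25 of -2.35 (0.0042) and Helios of -1.82 (0.0024). Sample median centring moved the median of all genes by 0.87 here and left 2 lower calls on the panel. At least 1 of these 3 marker calls was thus lost under it, and more than 1 if InsR was among the 2 lower calls. Igfbp7, the 1 of 4 listed stromal and endothelial markers on the panel, was higher in KO mice (2.69, adjusted p = 0.030), and Lyz2, the 1 of 11 listed myeloid markers on the panel, did not pass (-0.20, adjusted p = 0.92). The part of these genes in the differences of Cxcr6 and the other receptors was not tested.

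The other 4 receptors overlapped between 52-week KO and Ctrl mice. Ccr1 was 35.7, 93.4 and 437 (lowest, median, highest) in KO mice, against 358, 145 and 250.0 in Ctrl mice (-1.17, SE 0.75, adjusted p = 0.25 by limma). Ccr2 was 202, 419 and 706 in KO mice, against 1246, 309.8 and 496 in Ctrl mice (-0.59, SE 0.52, adjusted p = 0.41). Ccr4 was 16.5, 55.9 and 139 in KO mice, against 43.8, 91.3 and 184 in Ctrl mice (-0.72, SE 0.57, adjusted p = 0.36). For Ccr1, 4 of 6 KO mice were below all Ctrl mice and 1 was above all of them, and for Ccr2, 3 of 6 were below all Ctrl mice. Ccr3 was 2.23, 19.0 and 83.8 in KO mice, against 16.0, 10.7 and 29.4 in Ctrl mice (0.03, SE 0.69, adjusted p = 0.97 by limma), with the Ctrl mice inside the KO range.

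Averaged over the 3 settings with equal weights, Ccr2 was lower in KO Tregs, with a log2 difference of -1.10 (SE 0.31, 95% interval -1.75 to -0.45, adjusted p = 0.046 by limma), and 5.21% of genes passed, 1 higher and 4 (4.17%) lower. Its difference was -0.50 on HFD, -2.21 on NCD and -0.59 at 52 weeks, the NCD value being the largest of the 3. The call was lost in 16 of the 24 omissions of 1 mouse, where adjusted p reached 0.095; it was kept without HFD Ctrl replicate 2 or 3, NCD Ctrl replicate 1, NCD KO replicate 3, 52-week KO replicate 2, 5 or 6, or 52-week Ctrl replicate 2. It was also lost with sample median centring (-0.72, adjusted p = 0.14), which moved the median of all genes by 0.38 and gave 6 higher and 2 lower calls, with reference gene centring (-1.18, 0.060) and with each sample rescaled to 1 panel total (-1.03, 0.060). Mean differences of the other receptors were -0.86 for Ccr1, 0.43 for Ccr3, -0.09 for Ccr4 and -1.23 for Cxcr6, with adjusted p of 0.15 to 0.87 by limma. The median of the 5 receptors was -0.86, beside -0.29 for all genes.

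**Figure D1:**
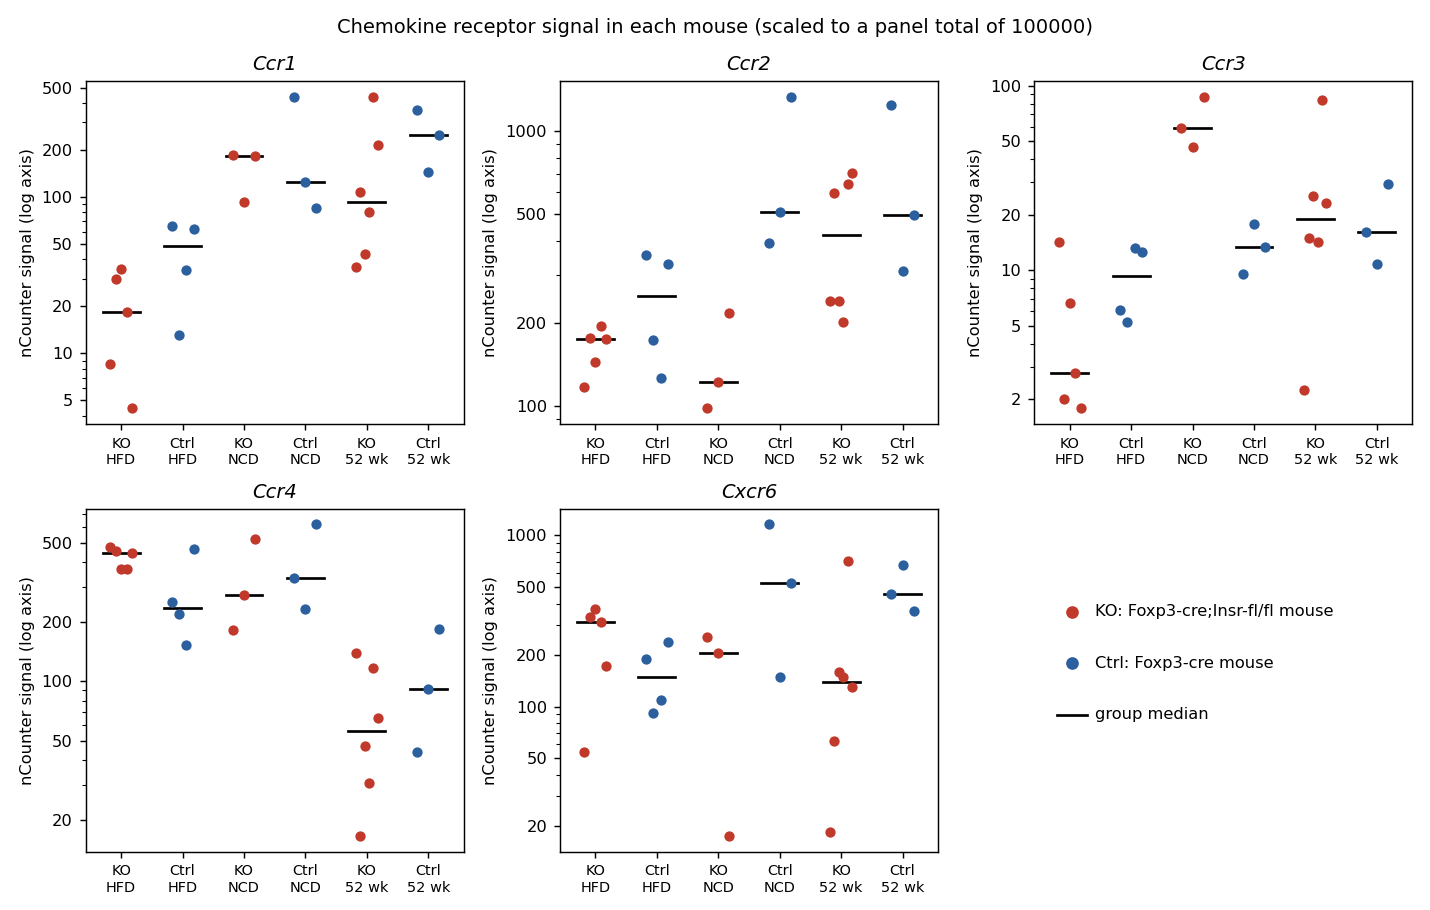
Signal of each chemokine receptor in each mouse (log axis, scaled to a panel total of 100000), with KO mice in red, Ctrl mice in blue and a bar at the group median; groups are HFD and NCD at 16 weeks and NCD at 52 weeks. Ccr2 and Ccr3 separate NCD KO and Ctrl mice in opposite directions, and Ccr4 is lowest in the 52-week groups.

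**Figure D2:**
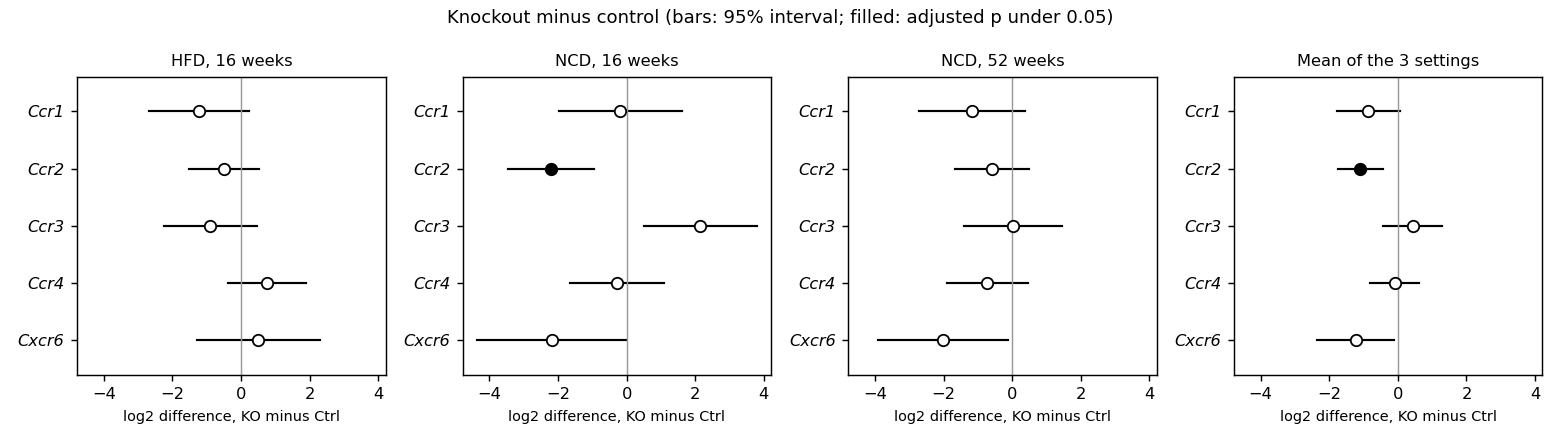
Log2 difference, KO minus Ctrl, of each receptor in each setting and as the mean of the 3 settings, with 95% intervals from limma; filled points passed at an adjusted p under 0.05. Ccr2 is the receptor with filled points, at -2.21 on NCD and -1.10 for the mean.

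In KO mice, HFD Tregs had lower Ccr1 and Ccr3 than NCD Tregs. Ccr1 averaged 19.3 ± 13.1 in HFD KO mice (SD, n = 5), against 154 ± 53.4 in NCD KO mice (n = 3), a log2 difference of -3.19 (SE 0.77, adjusted p = 0.0046 by limma). Ccr3 averaged 5.49 ± 5.29 in HFD KO mice, against 64.2 ± 21.0 in NCD KO mice (-3.61, SE 0.71, adjusted p = 0.0021 by limma). For both receptors, each HFD KO mouse was below each NCD KO mouse. In this comparison 17.7% of all genes passed, none higher and 17 lower. The split was 5 higher and 12 lower with sample median centring and none higher and 8 lower with reference gene centring. For 26% of genes the ranges did not overlap, 20.8% being lower. Both calls held in each of the 8 omissions of 1 mouse, with adjusted p of at most 0.042 for Ccr1 and 0.018 for Ccr3.

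Depth moved with this comparison, since all HFD KO totals (34986 counts or more) exceeded all NCD KO totals (23790 or fewer). Ccr3 had 2 to 5 recovered counts in HFD KO mice against 10 to 12 in NCD KO mice, that is 18 of 528174 pooled counts against 33 of 55596, a ratio of 0.0574 (95% exact binomial interval 0.0304 to 0.105, counting error only). Ccr1 had 84 of 528174 pooled counts in HFD KO mice against 81 of 55596 in NCD KO mice, a ratio of 0.109 (0.0795 to 0.150). Raw counts of Ccr1 were 3 to 30 in HFD KO and 21 to 38 in NCD KO mice. With log2 total as a covariate the differences were -2.04 for Ccr1 (adjusted p = 0.25) and -2.11 for Ccr3 (0.13), and neither passed. Since depth separates these groups fully, diet and depth cannot be told apart here.

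**Figure D3:**
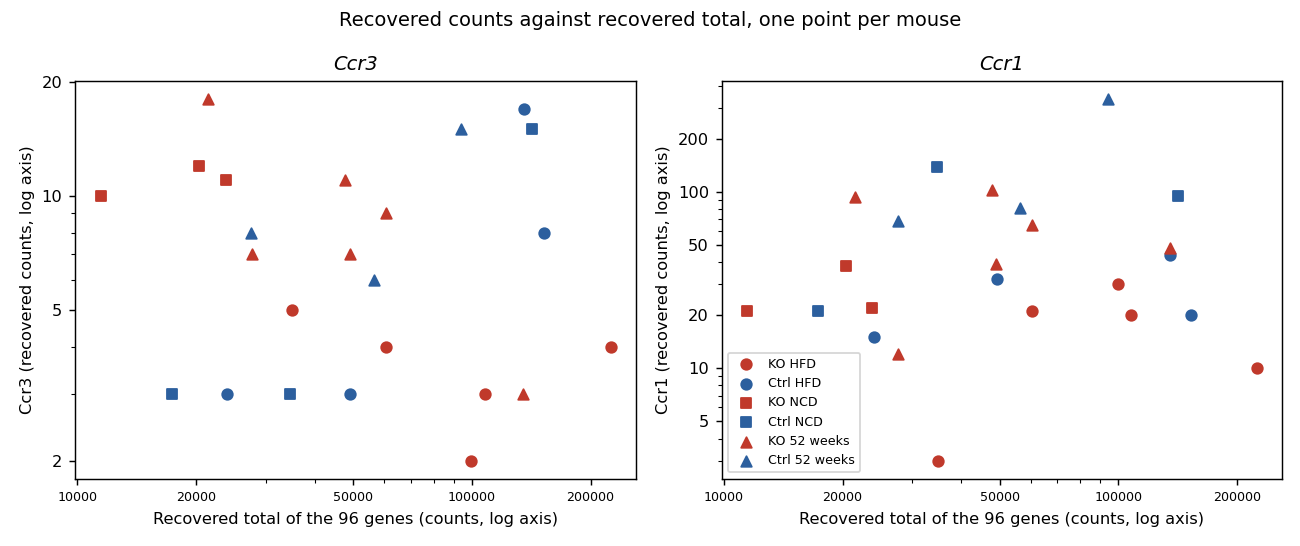
Recovered counts of Ccr3 (left) and Ccr1 (right) against the recovered total of the 96 genes in each mouse, both on log axes, with KO in red, Ctrl in blue and the setting shown by the marker. HFD KO mice lie at 34986 counts or more and NCD KO mice at 23790 or fewer, and Ccr3 counts are 2 to 5 in HFD KO and 10 to 12 in NCD KO mice.

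The other receptors did not pass between HFD and NCD in KO mice. Ccr2 averaged 162 ± 30.8 in HFD KO and 146 ± 63.6 in NCD KO mice, with a log2 difference of 0.21 (SE 0.54, 95% interval -0.91 to 1.33). Ccr4 averaged 425 ± 50.7 and 326 ± 177 in the same groups (0.51, SE 0.59), and Cxcr6 averaged 249.5 ± 132 and 159.7 ± 126 (1.06, SE 0.94), with adjusted p of 0.50 to 0.84 for the 3 receptors by limma. The HFD KO values of Ccr4 fell inside the NCD KO range.

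In Ctrl mice, Ccr1 and Ccr2 were lower in each HFD mouse than in each NCD mouse but did not pass. Ccr1 averaged 43.7 ± 24.8 in HFD Ctrl mice (n = 4) against 216 ± 193 in NCD Ctrl mice (n = 3), with a log2 difference of -2.14 (SE 0.80, adjusted p = 0.062 by limma). Ccr2 averaged 246 ± 113 in HFD Ctrl mice against 744 ± 513 in NCD Ctrl mice, with a log2 difference of -1.51 (SE 0.57, adjusted p = 0.062 by limma). Here 20.8% of all genes passed, 3 higher and 17 lower. The split was 6 higher and 12 lower with sample median centring and 2 higher and 23 lower with reference gene centring. Ranges did not overlap for 31.2% of genes, 25% being lower. Ccr1 passed without HFD Ctrl replicate 1 (adjusted p = 0.045), HFD Ctrl replicate 4 (0.049) or NCD Ctrl replicate 3 (0.034). Ccr2 passed without HFD Ctrl replicate 1 (0.042), HFD Ctrl replicate 4 (0.049) or NCD Ctrl replicate 1 (0.049), and voom called Ccr2 (0.030). Over the alternatives other than leaving out 1 mouse, adjusted p by limma was 0.036 to 0.11 for Ccr1 and 0.030 to 0.23 for Ccr2. So Ccr1, too, passed under an alternative that kept all mice. Ccr3 (-0.56, SE 0.75), Ccr4 (-0.54, SE 0.62) and Cxcr6 (-1.63, SE 0.99) overlapped between the diets, with adjusted p of 0.25 to 0.62.

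The KO and Ctrl mice were also compared in their diet differences. No receptor passed for the interaction of genotype and diet, nor did any of the 96 genes by limma, with 12 genes at an unadjusted p under 0.05 and 2 called by voom (0% of genes passed). Among the receptors, Ccr3 had an interaction of -3.05 (SE 1.03, adjusted p = 0.22), Cxcr6 of 2.68 (SE 1.36, adjusted p = 0.37) and Ccr2 of 1.72 (SE 0.78, adjusted p = 0.35). Ccr3 passed with array weights (-3.14, adjusted p = 0.016).

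Ccr4 was lower in older KO mice, and Ccr2 and Ccr3 differed with age in opposite directions. Ccr4 was below the younger range in all 6 KO mice at 52 weeks, at 16.5, 55.9 and 139 (lowest, median, highest), against 182, 274 and 524 in the 3 KO mice at 16 weeks on NCD. The log2 difference was -2.43 (SE 0.57, 95% interval -3.61 to -1.24, adjusted p = 0.0017 by limma). Ccr2 was higher at 52 weeks, averaging 438 ± 233 (n = 6) against 146 ± 63.6 at 16 weeks (n = 3), with 5 of 6 mice above all mice at 16 weeks (1.47, SE 0.52, adjusted p = 0.024). Ccr3 was lower at 52 weeks, averaging 27.2 ± 28.9 against 64.2 ± 21.0 at 16 weeks, with 5 of 6 mice below all mice at 16 weeks (-1.76, SE 0.69, adjusted p = 0.036). These Ccr3 values rested on 3 to 18 recovered counts at 52 weeks and 10 to 12 at 16 weeks. Depth moved with age as well, with totals of 21487 to 135141 counts in KO mice at 52 weeks and 11446 to 23790 at 16 weeks. The share of genes that passed was 54.2%, with 12 higher and 40 lower in the older mice, 12.5% and 41.7% of the panel, so 3 of 5 receptors is close to the panel's share; the split was 16 and 16 with sample median centring and 15 and 18 with reference gene centring, which moved the median of all genes by 0.76 and 0.58.

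Groups did not overlap for 33.3% of genes, 24% being lower at 52 weeks, Ccr4 among them. The Ccr4 call was kept in every alternative and every omission of 1 mouse, at log2 differences of -2.78 to -1.66 and adjusted p of at most 0.023. The Ccr2 call was lost without NCD KO replicate 1 (adjusted p = 0.11) or 2 (0.076), with the 2 groups fitted alone (0.054) and by voom (0.051). The Ccr3 call was lost without any 1 of the 3 NCD KO mice (0.086, 0.057 and 0.13 for replicates 1, 2 and 3) or 52-week KO replicate 1 (0.066), 2 (0.059) or 4 (0.057), and under both centrings, the depth covariate and the 2 groups alone (0.10 to 0.24).

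Markers of Tregs and of other cells moved with the age difference in KO mice. Foxp3 averaged 687 ± 463 in KO mice at 52 weeks against 3284 ± 245 at 16 weeks (-2.59, adjusted p = 0.00024 by limma), and CD25 (-2.48) and Helios (-3.38) also passed. Lyz2 ran from 198 to 6875 at 52 weeks against 105 to 227 at 16 weeks (2.96, adjusted p = 0.028). Igfbp7 ran from 2001 to 8571 against 75.8 to 279.6 (5.19, adjusted p = 6.4e-05). None of the listed markers of neutrophils, eosinophils and mast cells, B cells, NK and CD8 T cells or adipocytes is on the panel. The part of these differences in the Ccr2, Ccr3 and Ccr4 results was not tested.

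In Ctrl mice, Ccr4 was 43.8, 91.3 and 184 at 52 weeks, against 333, 232 and 621 at 16 weeks, with no overlap. Its log2 difference of -1.995 (SE 0.66, adjusted p = 0.074 by limma) did not pass, while 5.21% of all genes passed, 3 higher and 2 lower, against 5 higher and 1 lower with sample median centring and 4 higher and 1 lower with reference gene centring. Ranges did not overlap for 43.8% of genes, 25% being lower. It passed without 52-week Ctrl replicate 3 (-2.50, adjusted p = 0.041), with array weights (0.018) and by voom (0.043). Of the Treg markers, Foxp3 averaged 1784 ± 419 in Ctrl mice at 52 weeks against 3295 ± 1323 at 16 weeks (-0.83, adjusted p = 0.36). CD25 ran from 1485 to 3610 at 52 weeks against 5534 to 6956 at 16 weeks (-1.29, adjusted p = 0.19), and Helios from 783 to 1035 against 1735 to 2844 (-1.35, adjusted p = 0.074), both with no overlap. Lyz2 averaged 2625 ± 2352 at 52 weeks against 232 ± 187 at 16 weeks (2.88, adjusted p = 0.16), and Igfbp7 averaged 1111 ± 976 against 562 ± 136 (0.45, adjusted p = 0.81). The part of these markers in the Ccr4 difference was not tested. The other 4 receptors had overlapping ranges in Ctrl mice, with log2 differences of 0.49 (Ccr1), -0.16 (Ccr2), 0.36 (Ccr3) and 0.08 (Cxcr6) and adjusted p of 0.81 to 0.99.

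No receptor passed for the interaction of genotype and age by limma, and none of the 5 had an unadjusted p under 0.05; 0% of genes passed, 26 of 96 were at an unadjusted p under 0.05 and 4 were called by voom. The interaction was 1.63 (SE 0.80) for Ccr2 and -2.12 (SE 1.06) for Ccr3, both at adjusted p = 0.18, and -0.43 (SE 0.88) for Ccr4 at adjusted p = 0.82. The larger Ccr4 difference in KO mice is thus not shown to differ from that in Ctrl mice.

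**Figure D4:**
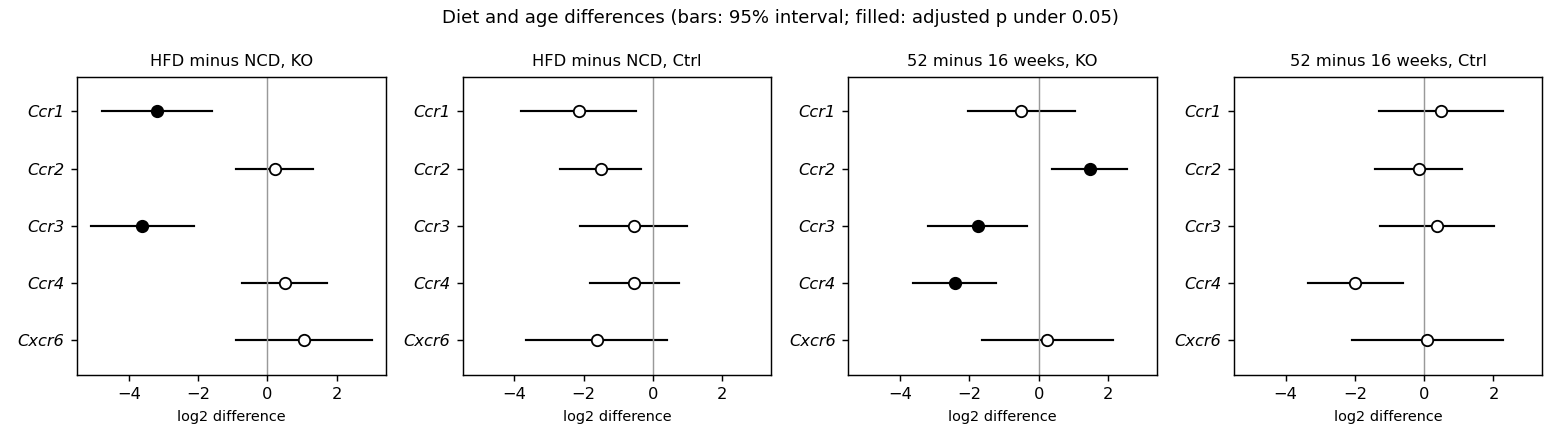
Log2 differences of each receptor between HFD and NCD and between 52 and 16 weeks, in KO and in Ctrl mice, with 95% intervals from limma; filled points passed at an adjusted p under 0.05. Filled points are Ccr1 (-3.19) and Ccr3 (-3.61) for diet in KO mice and Ccr2 (1.47), Ccr3 (-1.76) and Ccr4 (-2.43) for age in KO mice.

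Over the 6 groups, each receptor had its own order of levels. Ccr1 was highest in 52-week Ctrl (251 ± 106) and NCD Ctrl (216 ± 193), then NCD KO (154 ± 53.4), 52-week KO (153 ± 154), HFD Ctrl (43.7 ± 24.8) and HFD KO (19.3 ± 13.1) mice. Ccr2 ran in the order NCD Ctrl (744 ± 513), 52-week Ctrl (684 ± 495), 52-week KO (438 ± 233), HFD Ctrl (246 ± 113), HFD KO (162 ± 30.8) and NCD KO (146 ± 63.6) mice. No neighbours in the order of Ccr1 or Ccr2 differed by more than the larger of their SDs.

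Ccr3 was highest in NCD KO (64.2 ± 21.0) mice, then 52-week KO (27.2 ± 28.9), 52-week Ctrl (18.7 ± 9.62), NCD Ctrl (13.6 ± 4.17), HFD Ctrl (9.26 ± 4.16) and HFD KO (5.49 ± 5.29) mice. Ccr4 ran in the order HFD KO (425 ± 50.7), NCD Ctrl (396 ± 202), NCD KO (326 ± 177), HFD Ctrl (272 ± 136), 52-week Ctrl (106 ± 71.2) and 52-week KO (69.1 ± 48.7) mice. Gaps larger than both SDs were those between NCD KO and 52-week KO and between NCD Ctrl and HFD Ctrl mice for Ccr3, and that between HFD Ctrl and 52-week Ctrl mice for Ccr4. Cxcr6 was highest in NCD Ctrl (613 ± 511) and 52-week Ctrl (494 ± 159), then HFD KO (249.5 ± 132), 52-week KO (204 ± 252), NCD KO (159.7 ± 126) and HFD Ctrl (157 ± 68.7) mice, with 1 gap larger than both SDs, between 52-week Ctrl and HFD KO mice. All neighbouring groups overlapped in range for all 5 receptors.

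The 5 receptors differed in how much of their spread lay between groups. Ccr4 had the largest share of its log2 variance between groups (73.2%), followed by Ccr1 (66.7%), Ccr2 (61.1%) and Ccr3 (58.9%), beside a panel median of 61.3%. Cxcr6 had 31.6%, rank 83 of 96. Within groups the SD of Cxcr6 was 1.39 on the log2 scale, the 11th largest of the panel, against 0.74 for Ccr2, 0.83 for Ccr4, 1.03 for Ccr3 and 1.12 for Ccr1. Low counts are part of the Ccr3 measurement, with 2 to 18 recovered counts per mouse and a median of 7.

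Between mice of the same group, none of the pairs of receptors passed for moving together. After subtraction of group means, the 10 pairs of receptors had Pearson's r from -0.07 to 0.54 over 24 mice. The highest was that of Ccr1 and Cxcr6, with r = 0.54 (permutation p = 0.018, adjusted p = 0.18 over the 10 pairs) and Spearman's rho = 0.55 (permutation p = 0.012, adjusted p = 0.12), and r was 0.45 without the 2 mice farthest from the median of Ccr1. With reference gene centring it was 0.64 (adjusted p = 0.020). Ccr1, Ccr3 and Ccr2, neighbours on the chromosome, had r of 0.44 (Ccr1 and Ccr3), 0.40 (Ccr1 and Ccr2) and 0.22 (Ccr2 and Ccr3), against 0.22, 0.38 and 0.26 for the same pairs without the 2 mice farthest from the median of the first-named gene. Cxcr6, in the same 303 kb, had r of 0.24 with Ccr3 and 0.094 with Ccr2. Without the 2 mice farthest from the median of Ccr3 or Ccr2, these were -0.46 and 0.098. The r of Ccr1 and Ccr4 (0.03) and of Ccr4 and Cxcr6 (-0.07) also changed sign in this way, to -0.13 and 0.04.

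Across all 24 samples, the panel genes most like each receptor in pattern were taken by Pearson's r of log2 values, as a description. Ccr4 was most like Tnfrsf9, an activation receptor of T cells (r = 0.86), Foxp3, the transcription factor of Tregs (0.86), and Gata3, a transcription factor of Th2 cells (0.86). Within groups the r of Ccr4 was 0.76 with Tnfrsf9, 0.59 with Foxp3 and 0.79 with Gata3. Cxcr6 was most like Klrg1, a marker of differentiated effector cells (0.70), Tcra (0.69) and RoRa, a nuclear receptor (0.66), and its r with Tcra was 0.85 within groups and 0.36 over the 6 group means. Ccr1 was most like Pparg, a transcription factor of VAT Tregs (0.80), Ctla2a (0.80) and the chemokine Cxcl2 (0.79). Ccr2 was most like Cxcl2 (0.65), Tmem176a (0.60) and Ccr1 (0.58), and the genes most like Ccr3 included Lgals3, which encodes galectin-3 (0.71), and Ccr1 (0.66). All samples share the panel scaling, and depth differs between them. Some of these genes had few recovered counts per mouse, with a median of 3 for Lgals3 (1 to 16), 7.5 for Ctla2a (1 to 24) and 7 for Ccr3 (2 to 18). The part of depth in these r values was not tested.

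**Figure D5:**
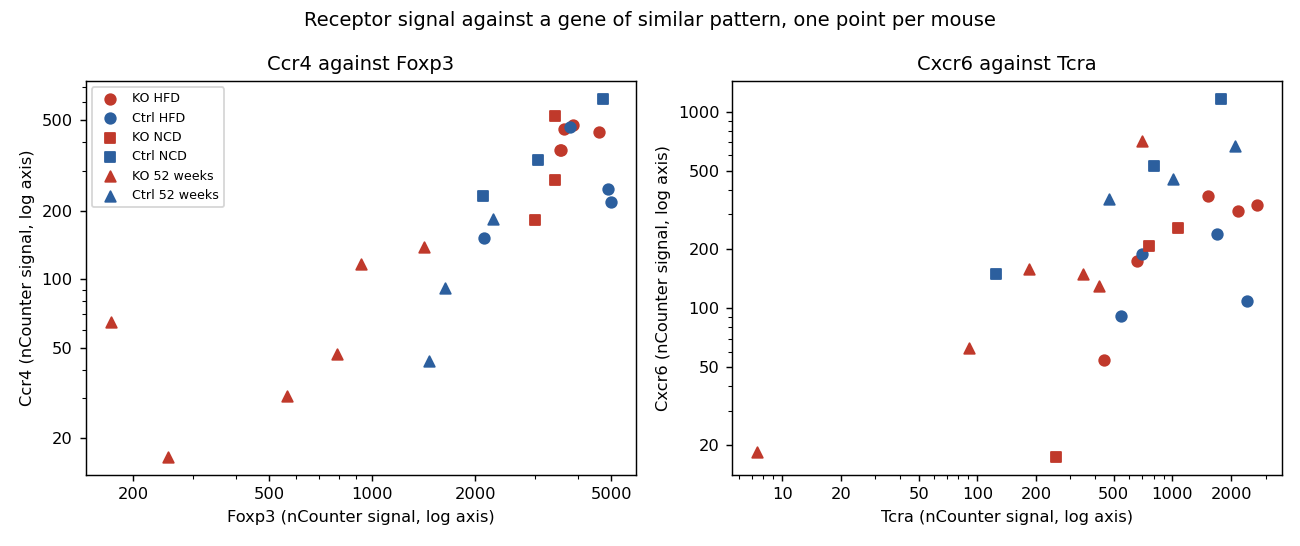
Ccr4 signal against Foxp3 signal (left) and Cxcr6 signal against Tcra signal (right) in each mouse, all on log axes, with KO in red, Ctrl in blue and the setting shown by the marker. The 52-week KO mice are low in both Foxp3 (172 to 1418) and Ccr4 (16.5 to 139), and the 3 mice with the lowest Cxcr6 include the mouse with the lowest Tcra (7.43).

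Other genes of leukocyte traffic on the panel were read in the same comparisons. Ccr7, which guides T cells to lymph nodes, rose in NCD KO against NCD Ctrl mice (2.81, adjusted p = 0.015 by limma), where Ccr2 fell. It averaged 1350 ± 729 in NCD KO and 244 ± 249 in NCD Ctrl mice. Between HFD and NCD, Ccr7 rose in Ctrl mice (3.89, adjusted p = 9.6e-05), where Ccr1 was at -2.14 and Ccr2 at -1.51, and with age it fell in KO mice (-2.09, adjusted p = 0.0069), as Ccr4 did. Cxcr4, the receptor of Cxcl12, fell with age in KO mice (-1.32, adjusted p = 0.029), averaging 1284 ± 641 against 2974 ± 956, and did not pass in the other 9 comparisons. Cd9, a tetraspanin of the cell surface, rose in KO against Ctrl mice at 52 weeks (1.92, adjusted p = 0.021), averaging 957 ± 320 against 274 ± 161. Cd44, the hyaluronan receptor, passed in none of the 10 comparisons by limma, with group means of 7.37 to 27.5.

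Of the chemokine ligands, the panel holds Cxcl2 and Cxcl3, both ligands of Cxcr2 and of none of the 5 receptors. Cxcl2 was lower on HFD than on NCD in KO mice (224 ± 86.0 against 837 ± 258; -1.93, adjusted p = 0.0034 by limma) and in Ctrl mice (185 ± 63.0 against 1744 ± 391; -3.28, adjusted p = 2.2e-05). It rose with age in KO mice (1.25, adjusted p = 0.018). Cxcl3 was lower on HFD in Ctrl mice (-2.92, adjusted p = 0.0074) and passed in no other comparison. Over all 10 comparisons the 5 receptors gave 50 values, of which 7 passed: Ccr2 in 3, Ccr3 in 2, Ccr1 in 1 and Ccr4 in 1, and Cxcr6 in none. Over all genes 129 of 960 values passed (13.4%), so the receptors' count is close to the panel's share.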

How the data were processed

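The files held nCounter signal for 96 genes in 24 samples, each 1 mouse per the labels' protocols. The authors deposited this signal on a linear scale, with a target of 100000 for the sum over the panel, which 12 of the 24 samples met exactly and the others exceeded (at most 126723). Background correction, positive-control scaling and software are not stated in the labels or file headers. Counts were recovered from the step of each sample's signal: 2302 of 2304 values were whole within 0.02 counts, and 5 were at 0. Recovered totals were 11446 to 224793 counts (median 49098). Counting intervals are 95% exact binomial and cover counting error only.

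limma 3.58.1 in R 4.3.3 fitted 6 group means to log2(signal + 1) in all 24 samples, with two-sided p-values adjusted by Benjamini-Hochberg over the 96 genes (threshold 0.05) in 10 comparisons. It was also run on simulated normal values, with shifts larger than any receptor difference of this fit. That run does not show how smaller differences at low counts would fare. Correlations of receptors within groups used 100000 permutations. Groups came from the sample titles. The replicate numbers were not used to pair the mice, except in the replicate block.

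The 5 receptors and all gene lists were chosen with earlier results of these data known. The 5 were always named, with the 3 genes most like each by Pearson's r and the panel's members of the lists of homing genes, chemokine ligands and cell type markers. Alternatives were other pseudocounts, a filter on low genes, sample median and reference gene centring (Gusb, Hprt, Rpl19, Sdha), the groups of a comparison alone, array weights, a replicate block, log2 total as a covariate and leaving out each mouse. Voom on recovered counts and rescaling to 1 panel total were chosen after seeing the data. Gene names matched RefSeq symbols for 88 panel names and synonyms for 4. Results for 2 further genes that this rule would name are not reported here.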

Additional observations from a re-analysis of the deposited data

How the results depend on the processing

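The values under the alternatives limit the results as follows. The count test planned for recovered counts was not run, because a second check of the lowest values for whole steps did not accept them as counts, and voom stood in for it. Voom and the counting intervals rest on the estimated steps. Ccr1 and Ccr3 were among the 25% of genes with the lowest mean and have no value under the filter on low genes. Ccr3 rested on 2 to 18 counts per mouse, so small differences of Ccr3 were not detectable at this depth. Sample median centring moved the median log2 difference of all genes by -0.19 to 0.87 over the 10 comparisons, and reference gene centring by -0.39 to 0.70. Of the receptors' log2 differences under the alternatives other than leaving out 1 mouse, 473 kept their direction and their side of the threshold, 14 lost a call, 14 gained one and 24 changed sign. None of the values that changed sign had passed. The cause of these changes was not tested.

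Sign changes under sample median centring were those of Ccr1 for genotype on NCD (0.043), Ccr2 (0.29) and Ccr4 (0.15) for genotype at 52 weeks, Ccr4 for the mean genotype effect (0.29), Ccr3 (0.057) and Ccr4 (0.081) for diet in Ctrl mice, Ccr1 for age in KO mice (0.27) and Ccr4 for genotype by age (0.21). With reference gene centring they were Ccr3 for genotype at 52 weeks (-0.14), Ccr2 for age in Ctrl mice (0.21) and Ccr1 for age in KO mice (0.086). Ccr3 for genotype at 52 weeks also changed sign with a pseudocount of 0.1 (-0.018), the depth covariate (-0.068) and voom (-0.30), and Ccr1 for age in KO mice with the depth covariate (0.21). Array weights turned Ccr2 for age in Ctrl mice (0.072) and Cxcr6 for age in KO mice (-0.20) and for genotype by age (-0.28); voom turned the same Cxcr6 values (-0.16 and -0.43), and rescaling to 1 panel total turned Ccr2 for age in Ctrl mice (0.0052). Correlations that changed sign with median centring were Ccr1 and Ccr4 (-0.30), Ccr2 and Ccr4 (-0.014), Ccr2 and Cxcr6 (-0.12) and Ccr3 and Ccr4 (-0.081), and with reference gene centring Ccr4 and Cxcr6 (0.16).

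The replicate block ended the calls of Ccr2 for genotype on NCD (-2.21, adjusted p = 0.069 by limma) and for age in KO mice (1.12, 0.13), and turned Ccr3 for genotype at 52 weeks (-0.23) and Cxcr6 for age in KO mice (-0.32) and for genotype by age (-0.40). Deviations of same-numbered mice from their group means had r from -0.25 to 0.20. With 3 or 4 such pairs per comparison, this cannot show whether the numbers pair mice. With the block, counts of genes passing were 1 for genotype on HFD, 3 on NCD and 10 for the mean effect.

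Counts of genes past the threshold that moved by over 1.5 times were as follows. Genotype on HFD called 2 genes, and 1 with the groups alone, 5 with array weights and 4 by voom. Genotype on NCD called 5, and 3 with reference gene centring and 8 with array weights. At 52 weeks genotype called 23, and 5 with the groups alone and 46 with array weights. The mean effect called 5, and 8 with a pseudocount of 10 or median centring, 1 with reference gene centring, 21 with array weights and 15 with the depth covariate. Diet in KO mice called 17, and 11 with the filter on low genes, 8 with reference gene centring, 28 with array weights and 1 with the depth covariate. Age in Ctrl mice called 5, and 19 with array weights and 10 by voom, and age in KO mice called 52, and 32 and 33 with median and reference gene centring. Genotype by diet called 0, and 1 with a pseudocount of 10, median centring or the depth covariate, 7 with array weights, 2 by voom and 2 after rescaling to 1 panel total. Genotype by age called 0, and 8 with a pseudocount of 10, 1 with median centring or rescaling, 3 with the groups alone, 23 with array weights and 4 by voom.

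Leaving out 1 mouse gave counts of 1 to 3 (genotype on HFD), 2 to 5 (NCD), 9 to 32 (52 weeks), 1 to 12 (mean effect), 7 to 16 (diet in KO), 2 to 5 (age in Ctrl), 0 to 1 (genotype by diet) and 0 to 7 (genotype by age). Log2 differences that spanned 0 were those of Ccr1 (-0.67 to 0.51) and Ccr4 (-0.70 to 0.093) for genotype on NCD, Ccr3 at 52 weeks (-0.41 to 0.54), Ccr4 for the mean effect (-0.26 to 0.081), Ccr2 (-0.034 to 0.54) and Cxcr6 (-0.16 to 1.74) for diet in KO mice, Ccr2 (-0.71 to 0.37), Ccr3 (-0.0044 to 0.68) and Cxcr6 (-0.71 to 0.76) for age in Ctrl mice, Cxcr6 for age in KO mice (-0.96 to 0.94), and Ccr4 (-0.95 to 0.076) and Cxcr6 (-1.04 to 0.97) for genotype by age.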
